A study of Mus musculus with 4 samples.

Results

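The epidermal barrier lipid enzymes examined here are 9 genes, Alox12b, Aloxe3, Abca12, Cers3, Elovl4, Ugcg, Smpd1, Pnpla1 and Cyp4f39. They were represented by every probe set that the platform annotation assigns to one of these symbols, which gave 14 of the 45101 probe sets on the array. Elovl4 and Smpd1 had several probe sets, as did Ugcg, and the other 6 genes had 1 each. All 14 probe sets passed the filter on dim signals, and all 9 genes were among the 13070 tested. Messenger RNA was measured in dorsal skin at postnatal day 16 on single-colour Affymetrix mouse arrays, 2 from bitransgenic mice that overexpressed deltaNp63alpha and 2 from wild type mice. DeltaNp63alpha is the isoform of the transcription factor p63 that predominates in basal keratinocytes. Each array held skin RNA of 1 animal, so n = 2 per group throughout. The sources used here do not give the promoter that drives the transgene, the strain or any inducing agent.

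The outermost layer of the epidermis holds water in the body through stacked lipid sheets between dead cells. Their main component is a family of ceramides with very long acyl chains, made in the granular layer, glucosylated, packed into lamellar bodies and secreted. Part of these ceramides carries linoleate on the far end of the acyl chain, and its oxidation by lipoxygenases precedes the covalent attachment of the ceramide to the protein envelope of the corneocyte. Loss of several of these enzymes causes ichthyosis in people and loss of the water barrier in newborn mice.

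None of the 9 barrier lipid genes differed between bitransgenic and wild type skin beyond the spread of the arrays. In limma's fit of all genes 0 of 9 passed an adjusted p (Benjamini-Hochberg) of 0.05, and 0 of 9 had an unadjusted p under 0.05, against 2.33% and 16.7% of all genes tested. Of the 14 probe sets, 0 passed in the fit of all probe sets and 0 had an unadjusted p under 0.05, against 0.173% and 9.97% of all probe sets. The lowest adjusted p among the 9 genes was 0.368, that of Smpd1. Mean values were higher in bitransgenic skin for 7 genes and lower for 2, Cers3 and Smpd1. The log2 differences, bitransgenic minus wild type on the log2(signal + 16) scale, ran from -0.72 for Smpd1 to 0.90 for Abca12. Their median was 0.27, against 0.0053 for all genes, and the median size regardless of sign was 0.32, against 0.34 for all genes. With 2 arrays per group the 95% intervals were wide, and a 2-fold difference in either direction lay outside the interval for Cers3, Elovl4 and Pnpla1 only, 3 of 9 genes against 35.8% of all genes. For Elovl4 this held with the probe set that stands for the gene and not with the other one, whose interval was -0.18 to 1.57.

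Facts on the arrays as a whole set the precision of these values. The median signal per array lay between 97.9 and 113.1. Control transcripts of Bacillus added in sample preparation averaged 1598 and 1528 on the replicate 1 arrays of bitransgenic and wild type skin, and 465 and 328 on the replicate 2 arrays, so replicate number went with spike-in signal and each level held both genotypes. Of the 4 probe sets of Trp63, the transgene's gene, 1451876_a_at read 10325 and 15247 in bitransgenic skin, against 206 and 838 in wild type skin (adjusted p = 0.0613 over all probe sets), and 1452027_a_at had a like difference (4.53, adjusted p = 0.0591). The other two showed none beyond the spread of the arrays, and 1418158_at, which stands for Trp63 in the fit of genes, read 5176 and 5302 in bitransgenic skin, against 4968 and 5812 in wild type skin. Several cell types also moved with genotype. Hair shaft markers fell in 6 of 7 genes tested, with summed signals of 670 and 3812 in bitransgenic skin, against 55151 and 97394 in wild type skin. Skeletal muscle markers fell in 6 of 7, with sums of 18283 and 22654 in bitransgenic skin, against 184489 and 79618 in wild type skin. Inner root sheath markers passed as lower in 2 of 8, with a median log2 difference of -5.16. All 8 had lower means and an unadjusted p under 0.05, as did all 7 hair shaft and all 7 skeletal muscle markers. None of 5 fat cell, 6 fibroblast or 7 myeloid markers passed, with medians of -1.48, -0.92 and 1.03. Each of these lists had 4 unadjusted p under 0.05, against 16.7% of all genes. The 4 of the myeloid list include Itgam, whose wild type mean of 52.25 lay below 57.0, the lowest mean signal kept. Itgam thus passed the filter only through bitransgenic skin. No marker of these lists was at 0, and the lowest was the hair keratin Krt86 at 4.9 on bitransgenic replicate 1. In bulk skin, fewer cells of a type and less RNA per cell cannot be told apart. The part of such shifts in the barrier lipid values was not tested.

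**Figure D1:**
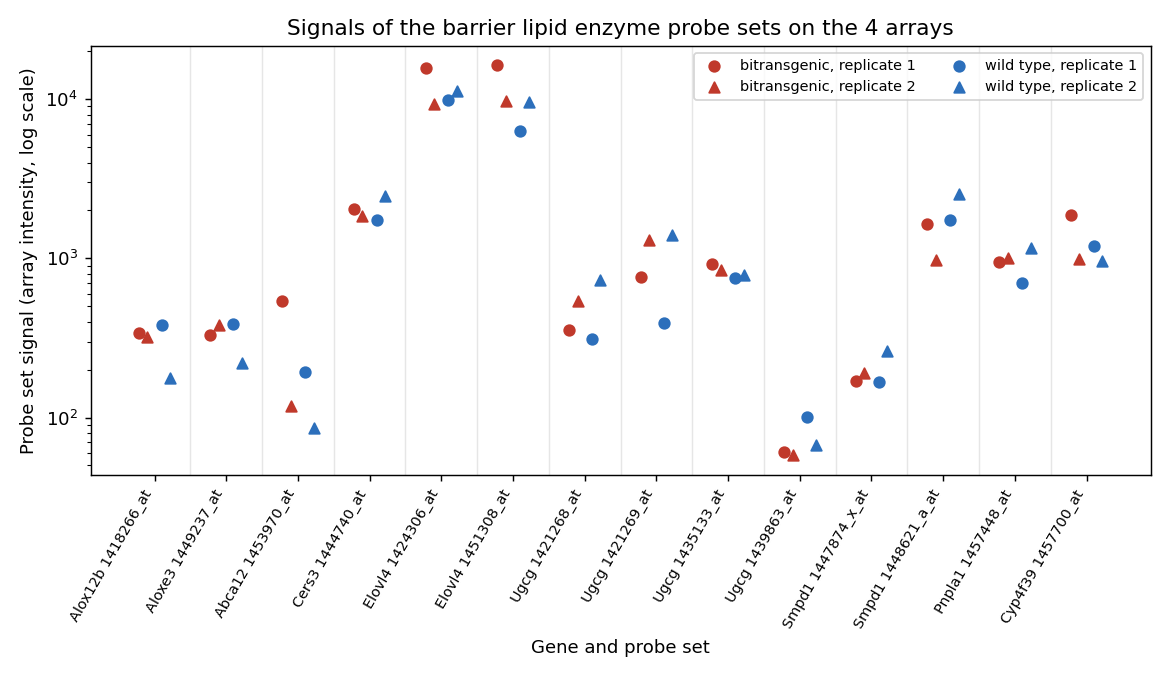
Signals of the 14 barrier lipid enzyme probe sets on each of the 4 arrays, on a log scale, with bitransgenic arrays in red on the left of each column and wild type arrays in blue on the right, circles for replicate 1 and triangles for replicate 2. Red and blue points interleave in 10 of the 14 columns, and the groups separate for Elovl4 1451308_at, Ugcg 1435133_at, Ugcg 1439863_at and Smpd1 1448621_a_at.

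The acyl chain genes come first in the order of synthesis. Elovl4 codes for the elongase that makes the very long chains of skin ceramides, and it was read by a pair of bright probe sets. Probe set 1424306_at gave signals of 15636 and 9344 in bitransgenic skin, against 9888 and 11217 in wild type skin. Probe set 1451308_at gave 16297 and 9684 in bitransgenic skin, against 6322 and 9550 in wild type skin. Bitransgenic replicate 1 was thus the highest array with both. Bitransgenic replicate 2 was the lowest array with 1424306_at and lay only just above the wild type arrays with 1451308_at. The log2 differences were 0.20 ± 0.31 (SE; adjusted p = 0.812 in limma's fit of all genes) and 0.69 ± 0.36 (adjusted p = 0.624 in the fit of the 45037 probe sets left after removing controls). With 1 array left out, the values were -0.17 and 0.32 for bitransgenic replicate 1, 0.57 and 1.07 for bitransgenic replicate 2, 0.11 and 0.40 for wild type replicate 1, and 0.29 and 0.99 for wild type replicate 2.

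Cyp4f39 codes for the mouse counterpart of the human omega-hydroxylase CYP4F22, which adds the hydroxyl group on the far end of the chain to which linoleate is later attached. Its signals were 1860 and 992 in bitransgenic skin, against 1189 and 957 in wild type skin. Here too the first bitransgenic array was highest. The second lay between the wild type arrays. The log2 difference was 0.34 ± 0.35 (SE, adjusted p = 0.695), and -0.10 without bitransgenic replicate 1. Sebaceous gland genes had a like split of the bitransgenic arrays, with a summed signal over 6 markers of 55410 and 28728 in bitransgenic skin, against 43272 and 36165 in wild type skin. None of these 6 passed, with 1 unadjusted p under 0.05, against 16.7% of all genes. Mean values were lower in bitransgenic skin for 4 of the 6, with a median log2 difference of -0.15. The 1 unadjusted p under 0.05 was that of Scd3, which read 1142 and 269 in bitransgenic skin, against 2568 and 1377 in wild type skin. Far2, an alcohol-forming reductase gene, was 1 of the 2 with a higher mean. It read 11622 and 3162 in bitransgenic skin, against 4333 and 4422 in wild type skin (chosen after its values were seen). The part of sebaceous gland RNA in the Elovl4 and Cyp4f39 values was not tested.

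Cers3 codes for the ceramide synthase that joins these very long acyl chains to the sphingoid base. Its signals were 2037 and 1839 in bitransgenic skin, against 1745 and 2452 in wild type skin, so both bitransgenic arrays lay inside the wild type range. The log2 difference was -0.10 ± 0.27 (SE, adjusted p = 0.907), with a 95% interval of -0.73 to 0.54. Among the 9 genes it was the smallest difference.

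Pnpla1 codes for the transacylase that puts linoleate on the hydroxylated chain. It read 953 and 1012 in bitransgenic skin, against 701 and 1155 in wild type skin. The bitransgenic arrays again lay inside the wild type range. The log2 difference was 0.12 ± 0.32 (SE, adjusted p = 0.896), with a 95% interval of -0.64 to 0.88, and it was -0.23 without wild type replicate 1.

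The head group genes were read by 6 probe sets. Ugcg codes for glucosylceramide synthase, which glucosylates ceramide before it is packed into lamellar bodies, and its 4 probe sets did not move together. The brightest on average, 1421269_at, read 764 and 1311 in bitransgenic skin, against 393 and 1406 in wild type skin, a log2 difference of 0.41 ± 0.60 (SE, adjusted p = 0.795). Wild type replicate 1 was lowest, and without it the value was -0.48. Probe set 1421268_at had the same order of arrays, with 353 and 541 in bitransgenic skin, against 312 and 735 in wild type skin, and a difference of -0.13. Probe set 1435133_at read 919 and 849 in bitransgenic skin, against 748 and 786 in wild type skin. Its arrays were the closest together of the 4 probe sets, with the bitransgenic pair above the wild type pair, and its difference was 0.20 (95% interval -0.41 to 0.82, adjusted p = 0.862 over all probe sets). The dimmest, 1439863_at, read 61.0 and 57.9 in bitransgenic skin, near the filter's signal of 57.0, against 101 and 67.7 in wild type skin. Its difference was -0.39 (adjusted p = 0.848 over all probe sets). Averaged over its 4 probe sets, Ugcg had a log2 difference of 0.02.

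Smpd1 codes for acid sphingomyelinase, which frees ceramide from sphingomyelin and, unlike most of the other members, is expressed in nearly all cell types. With probe set 1448621_a_at it read 1648 and 977 in bitransgenic skin, against 1741 and 2524 in wild type skin. Both bitransgenic arrays were below both wild type arrays, but bitransgenic replicate 1 was only slightly below wild type replicate 1. The log2 difference was -0.72 ± 0.34 (SE, adjusted p = 0.368), with a 95% interval of -1.54 to 0.11. It was -1.09 without bitransgenic replicate 1, -0.34 without bitransgenic replicate 2, -0.98 without wild type replicate 1 and -0.45 with wild type replicate 2 left out. It was -1.36 between the replicate 2 arrays and -0.078 between the replicate 1 arrays. The dimmer probe set 1447874_x_at, whose suffix marks probes that can also read other transcripts, gave 169 and 192 in bitransgenic skin, against 166 and 263 in wild type skin, and its groups overlapped (difference -0.20, adjusted p = 0.923 over all probe sets). Smpd1 was the 1 gene of 9 whose groups did not overlap, against 48.8% of all genes tested (23.9% higher and 24.9% lower). Over probe sets, 4 of 14 did not overlap, 2 higher and 2 lower, against 40% of all probe sets.

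Abca12 codes for the transporter that loads glucosylceramides into lamellar bodies. It read 541 and 119 in bitransgenic skin, against 194 and 85.7 in wild type skin. The arrays of each genotype were far apart, and bitransgenic replicate 2 lay between the wild type arrays. The log2 difference of 0.90 ± 0.72 (SE, adjusted p = 0.601) was the largest of the 9 genes, with a 95% interval of -0.82 to 2.63. The bitransgenic arrays differed by 2.05 on the log2 scale. The difference was 1.93 without bitransgenic replicate 2, -0.12 without bitransgenic replicate 1, 1.43 when wild type replicate 1 was left out, and 0.38 when the second one was.

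The lipoxygenase genes act last, after secretion of the lipids. Alox12b codes for the 12R-lipoxygenase that oxidises the linoleate of the ceramide, and Aloxe3 for the epidermal lipoxygenase that converts the resulting hydroperoxide. Alox12b read 341 and 323 in bitransgenic skin, against 382 and 179 in wild type skin. Aloxe3 read 333 and 382 in bitransgenic skin, against 388 and 220 in wild type skin. For both genes the bitransgenic arrays were close together and inside the wild type range, and wild type replicate 2 was the lowest array. The log2 differences were 0.32 ± 0.42 (SE, adjusted p = 0.765) for Alox12b and 0.27 ± 0.37 (SE, adjusted p = 0.779) for Aloxe3. Without wild type replicate 2 the value was -0.19 for Alox12b and -0.12 for Aloxe3, and without wild type replicate 1 it was 0.84 and 0.66.

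**Figure D2:**
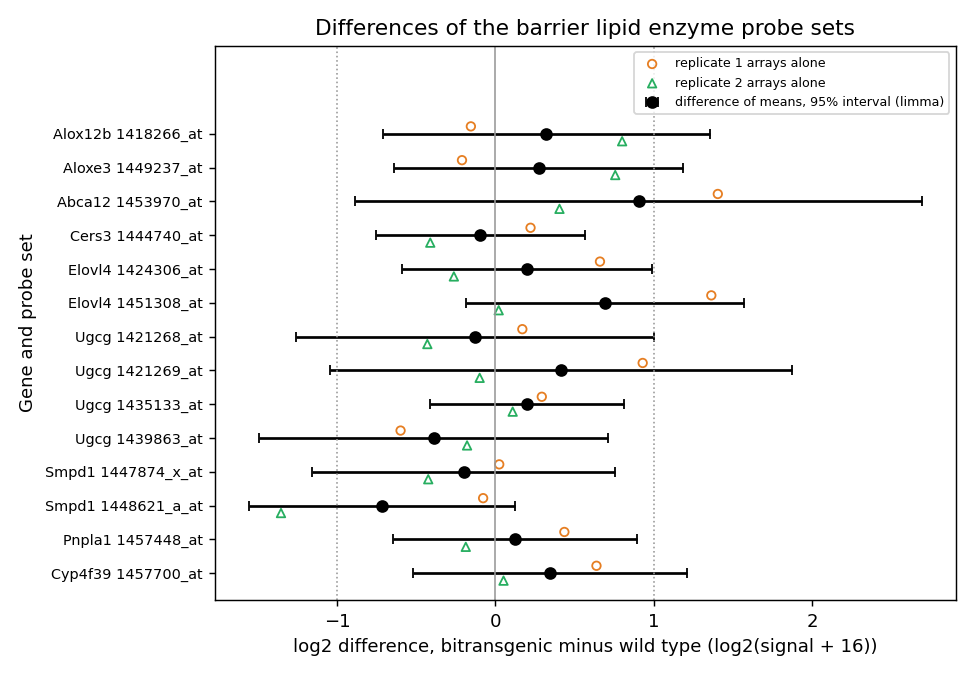
Log2 difference, bitransgenic minus wild type, for each of the 14 probe sets with its 95% interval from limma's fit of all probe sets (black), and the same difference between the replicate 1 arrays alone (orange circles) and the replicate 2 arrays alone (green triangles); dotted lines mark a 2-fold difference in either direction. Every interval includes 0, and the circle and triangle lie on opposite sides of 0 in 8 of the 14 rows, those of Alox12b, Aloxe3, Cers3, Pnpla1, Elovl4 1424306_at, Ugcg 1421268_at, Ugcg 1421269_at and Smpd1 1447874_x_at.

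In all 9 genes the arrays of at least 1 genotype were farther apart than the genotype means. The median gap between the wild type arrays was 0.71 on the log2 scale for the 9 genes, against 0.39 for all genes, and between the bitransgenic arrays 0.74 against 0.29. The difference between genotypes had opposite signs within replicate 1 and within replicate 2 for 6 of the 9 genes. It was positive in both for Abca12 (1.41 and 0.40) and for Cyp4f39 (0.64 and 0.05), and negative in both for Smpd1. Bitransgenic replicate 1 was the highest array for 3 genes, Abca12, Elovl4 and Cyp4f39. Wild type replicate 2 was the lowest for 4, Alox12b, Aloxe3, Abca12 and Cyp4f39. For these counts of gaps, signs and array order no share over all genes is given. The counts therefore do not set the 9 genes apart from other genes. The 3' to 5' signal ratio of Gapdh, which rises as RNA degrades, was 0.944 and 0.931 in bitransgenic skin, against 1.55 and 1.02 in wild type skin. That of actin did not differ in this way, at 1.70 and 1.54 in bitransgenic skin, against 1.66 and 1.53 in wild type skin. The part of RNA quality in these values was not tested. The tested genes outside the 9 whose 4 log2 values lay nearest to the mean profile of the 9 were Myo9b, an unconventional myosin, Btaf1, which acts on the TATA-binding protein, and the clone 5031425E22Rik, at distances of 0.039, 0.046 and 0.049. The mean profile itself spanned 0.43 on the log2 scale over the 4 arrays.

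**Figure D3:**
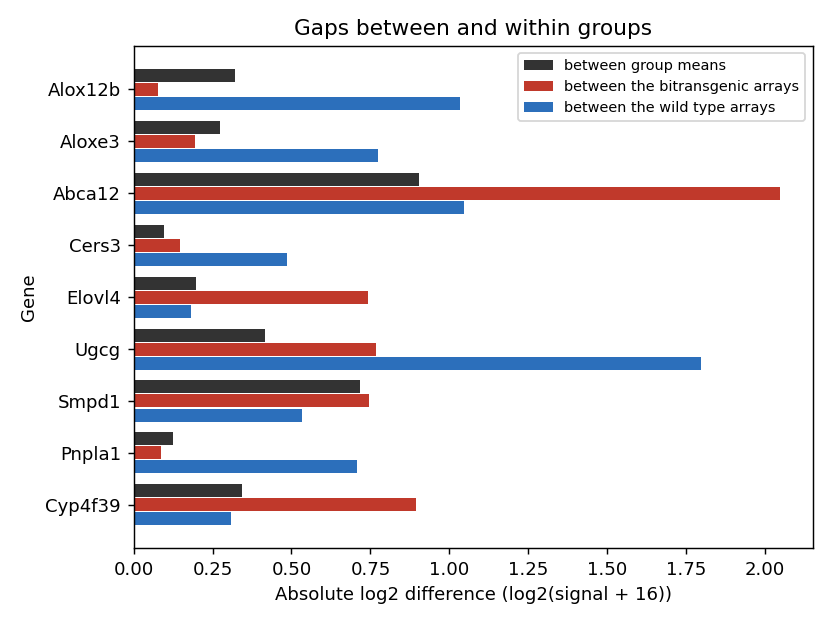
Absolute log2 gaps for each of the 9 genes between the group means (black), between the bitransgenic arrays (red) and between the wild type arrays (blue). In each gene a red or blue bar is longer than the black one, with the longest at 2.05 for Abca12 between bitransgenic arrays and at 1.80 for Ugcg between wild type arrays.

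The promoters of Abca12 and Smpd1, the genes with the largest positive and negative log2 difference, and of Alox12b are shown because the transgene codes for a transcription factor that binds p53-family sites. Each line gives the 250 bases before the gene's start, 5′ to 3′, from RefSeq on GRCm38.p6, with capitals marking a match to the p53-family half-site.
Abca12 (chr1:71414911-71415160, minus strand): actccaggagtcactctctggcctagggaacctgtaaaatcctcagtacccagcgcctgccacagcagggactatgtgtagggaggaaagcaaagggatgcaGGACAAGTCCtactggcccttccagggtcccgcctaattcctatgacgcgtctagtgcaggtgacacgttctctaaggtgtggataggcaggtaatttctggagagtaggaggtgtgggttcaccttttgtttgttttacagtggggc
Smpd1 (chr7:105554110-105554359, plus strand): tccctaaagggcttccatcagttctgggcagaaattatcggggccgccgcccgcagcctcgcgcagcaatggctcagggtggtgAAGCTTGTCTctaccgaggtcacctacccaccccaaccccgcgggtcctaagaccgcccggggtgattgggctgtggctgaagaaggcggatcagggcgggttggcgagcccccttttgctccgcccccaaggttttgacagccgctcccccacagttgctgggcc
Alox12b (chr11:69156822-69157071, plus strand): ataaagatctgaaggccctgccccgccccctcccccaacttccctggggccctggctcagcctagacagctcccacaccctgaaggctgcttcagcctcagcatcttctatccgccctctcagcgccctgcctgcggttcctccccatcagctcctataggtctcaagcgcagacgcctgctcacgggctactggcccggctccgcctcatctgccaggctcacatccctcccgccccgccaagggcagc
Such windows were at hand for 8 of the 9 genes, Aloxe3 being the exception. A half-site was found in 2 of 8, Abca12 and Smpd1, against 7.13% of all 32851 windows. It runs from base 148 to base 139 before the start in Abca12 and from base 166 to base 157 in Smpd1. The cores of 2 adjoining half-sites were found in 0 of 8, against 5.84% of all windows. The GC box GGGCGG, searched on both strands, was found in 4 of 8 (Alox12b, Elovl4, Ugcg and Smpd1), against 32.7%, and TATAAA in 0 of 8, against 12.4%. These matches are descriptions of letters, and no binding was measured here.

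Related genes were compared in the same fit. They were other genes of barrier lipid formation and its regulators, taken from lists of known roles, and gene family relatives of the members. The relatives were listed by family and not for a known role in the barrier. Of 101 such genes tested, 1 rose (0.99%, against 0.75% of all genes) and 2 fell (1.98%, against 1.58% of all genes), with a median log2 difference of 0.019. The gene that rose was Alox12e, the epidermal-type arachidonate lipoxygenase of mice and a paralog of Alox12b. Its signals were 10174 and 20721 in bitransgenic skin, against 3500 and 2767 in wild type skin, a log2 difference of 2.22 ± 0.37 (SE, adjusted p = 0.0402). The call was lost when bitransgenic replicate 2 was left out (1.70, adjusted p = 0.0954) and with no filter on dim signals, with the mean of a gene's probe sets and without an intensity trend (adjusted p = 0.0605, 0.055 and 0.0708). Over all alternatives its adjusted p lay between 0.0189 and 0.0954.

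Among the other lipoxygenases, chosen after their values were seen, Alox15 read 291 and 899 in bitransgenic skin, against 39.0 and 109 in wild type skin (2.68, adjusted p = 0.0974). The lower wild type signal lay below 57.0, so this size depends on the pseudocount. Alox8, which oxidises arachidonate in mouse skin treated with tumour promoters, read 6.4 and 11.3 in bitransgenic skin, against 103 and 470 in wild type skin. In bitransgenic skin it was dimmer than 57.0, the lowest mean signal kept, on both arrays, so it passed the filter only through wild type skin and the size of its difference is not given. In the RefSeq table Alox12b lies on chromosome 11 with Aloxe3 and Alox8 as its nearest coding neighbours.

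Of 13 genes that make the ceramide base and its amide, Sptssb fell and 12 did not pass. Sptssb codes for a small subunit of serine palmitoyltransferase that widens the enzyme's choice to longer acyl chains. It read 85.7 and 101 in bitransgenic skin, against 911 and 3076 in wild type skin, a log2 difference of -3.96 ± 0.56 (SE, adjusted p = 0.0248). The call was lost when bitransgenic replicate 1 (adjusted p = 0.0642) or replicate 2 (adjusted p = 0.0541) was left out, and with the mean of the gene's probe sets (0.0589), within a range over all alternatives of 0.00174 to 0.0642. The large subunits of the same enzyme, chosen after their values were seen, had higher mean values and groups that did not overlap without passing the test. Sptlc1 read 6571 and 5040 in bitransgenic skin, against 2403 and 3342 in wild type skin (1.02, adjusted p = 0.130). Degs1, the desaturase that completes the ceramide, read 12015 and 9065 in bitransgenic skin, against 5359 and 3864 in wild type skin (1.19, adjusted p = 0.0937).

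Of 17 genes of acyl chain elongation and activation, Acsl3 fell and 16 did not pass. Acsl3 codes for a synthetase that activates long-chain fatty acids, and it read 790 and 711 in bitransgenic skin, against 2126 and 2238 in wild type skin (-1.52 ± 0.24, SE; adjusted p = 0.0337). Its probe set carries the suffix _s_at, and without such probe sets the value was -1.18 (adjusted p = 0.159). Leaving out bitransgenic replicate 1 (adjusted p = 0.153) or replicate 2 (adjusted p = 0.172) also ended the call, as did the mean of the gene's probe sets (0.0638) and a fit without an intensity trend (0.0614), with 0.0245 the lowest value of any alternative. None of 18 genes of glucosylceramide and sphingomyelin turnover passed, with a median of -0.34. Of these, 3 had an unadjusted p under 0.05, against 16.7% of all genes. The smallest p was that of the ceramidase gene Acer3, which read 708 and 781 in bitransgenic skin, against 1384 and 1673 in wild type skin (-1.02, adjusted p = 0.112). None of 15 lipid envelope and lamellar body genes passed, with a median of -0.085. The 1 unadjusted p under 0.05 was that of the lipase gene Lipn. It read 180 and 285 in bitransgenic skin, against 90.2 and 22.2 in wild type skin. Its wild type mean of 56.2 lay below 57.0, so it passed the filter only through bitransgenic skin. The size of its difference is therefore not given.

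None of 8 ABC transporter genes passed, with a median of -0.72 and 5 unadjusted p under 0.05, against 16.7% of all genes. The 5 include Abca2, which read 18.2 and 57.3 in bitransgenic skin, against 96.1 and 94.5 in wild type skin. Its bitransgenic mean of 37.75 lay below 57.0, so Abca2 passed the filter only through wild type skin. None of 8 CYP4F and PNPLA paralogs passed, with a median of -0.058. The 1 unadjusted p under 0.05 among these paralogs was that of the triglyceride lipase gene Pnpla2 (-0.65, adjusted p = 0.244). Abca5 had the smallest p of the transporters, with 298 and 350 in bitransgenic skin, against 1246 and 720 in wild type skin (-1.51, adjusted p = 0.0934). None of 16 regulators of barrier formation passed, with a median of 0.13 and 5 unadjusted p under 0.05, against the same 16.7%. The 16 include Trp63, the transgene's gene, read by 1418158_at. That probe set did not show the difference seen with 1451876_a_at (4.85) and 1452027_a_at (4.53). The regulators with the smallest p differed in direction. Maf, a bZIP transcription factor gene, read 1898 and 1968 in bitransgenic skin, against 4079 and 5228 in wild type skin (-1.25, adjusted p = 0.0602). The fatty acid receptor gene Ppard read 893 and 1006 in bitransgenic skin, against 309 and 467 in wild type skin (1.28, adjusted p = 0.104).

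**Figure D4:**
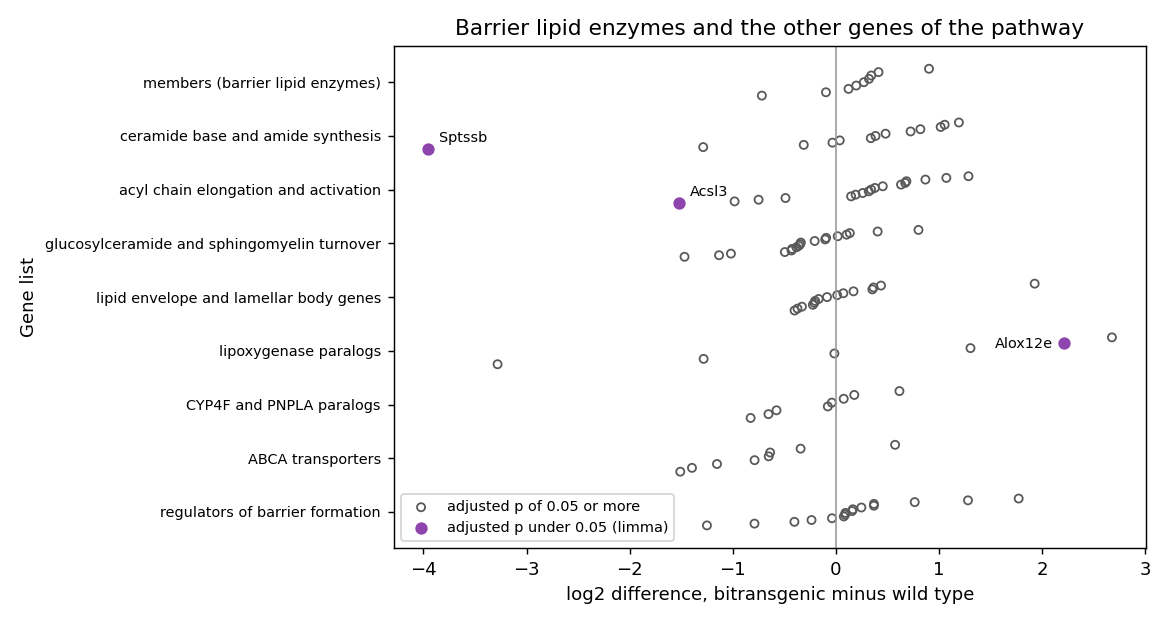
Log2 difference, bitransgenic minus wild type, of the 9 barrier lipid enzymes (top row) and of the tested genes of 8 lists of related genes, 1 point per gene; filled points passed an adjusted p of 0.05 in limma's fit of all genes. The 9 enzymes lie between -0.72 and 0.90 with no filled point, and the filled points are Sptssb at -3.96, Acsl3 at -1.52 and Alox12e at 2.22.

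Tested markers of the granular layer, which makes barrier lipids, and of the spinous layer gave signal on all arrays. The number of such cells was not measured. Of 13 markers of the granular and spinous layers, Flg and Casp14 rose and 11 did not pass, while Krt2 did not reach the test because of the filter on low signals. Mean values were lower in bitransgenic skin for 7 of the 13, with a median log2 difference of -0.16. Groups did not overlap for 5 higher and 5 lower, against 23.9% and 24.9% of all genes tested. The list had summed signals of 116381 and 140933 in bitransgenic skin, against 124403 and 120307 in wild type skin. Flg, the filaggrin gene, read 3178 and 2489 in bitransgenic skin, against 655 and 606 in wild type skin (2.13 ± 0.26, SE; adjusted p = 0.0156). Casp14, a protease gene of filaggrin processing, read 2411 and 2094 in bitransgenic skin, against 370 and 524 in wild type skin (2.31 ± 0.28, SE; adjusted p = 0.0166). Those that did not pass went both ways. Tgm3, a transglutaminase gene, read 154 and 253 in bitransgenic skin, against 378 and 2987 in wild type skin. The envelope gene Lor read 7171 and 3779 in bitransgenic skin, against 16101 and 8350 in wild type skin. Krt1 read 11382 and 18291 in bitransgenic skin, against 6727 and 3428 in wild type skin. Ivl read 11824 and 17639 in bitransgenic skin, against 3036 and 10561 in wild type skin. All of these were chosen after their values were seen. None of 7 basal keratinocyte markers passed, with 0 unadjusted p under 0.05, against 16.7% of all genes. Whether the barrier lipid genes differed in response from Flg and Casp14 was not tested.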

How the data were processed

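The authors deposited linear intensities, 1 per probe set and array. Per the submitters' processing notes, MAS5 and affy were used, with no version or step named in the sources at hand. The mean of each array with 2% of probe sets trimmed at each end was 500 to the nearest whole number, so values are relative to the rest of an array. Gene names came from the platform annotation, and 34741 of 34945 probe sets with 1 symbol matched RefSeq by Entrez identifier.

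Signals were transformed as log2(signal + 16). Probe sets with a mean at or above the 40th percentile (6.19, a signal of 57.0) were kept, and the brightest stood for its gene. The genotypes were compared in R 4.3.3 by limma 3.58.1 (linear model and moderated variance with a trend on intensity), over 13070 genes and also over 45037 probe sets without a filter, each with Benjamini-Hochberg adjustment and a threshold of 0.05. Residual degrees of freedom were 2 in the fit of genes and prior ones 4.45, and the code was tested on simulated data. Precision is limited by the number of arrays. The members and gene lists were chosen with earlier results of these data known. All 9 members were named. The rule for other names took the genes past the threshold in each list or, where none passed, up to 3 with the smallest p, and only some of these are printed. Alternatives covered the pseudocount, filter, scaling, choice of probe set, variance model, replicate block and each array left out.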

Additional observations from a re-analysis of the deposited data

How the results depend on the processing

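The count of 0 barrier lipid genes and 0 of their probe sets past the threshold held under every alternative run, with a lowest adjusted p of 0.24 for a gene and 0.294 for a probe set, both with 1 wild type array left out. Abca12 did not pass the filter at the 60th percentile. No sign of the 9 genes or 14 probe sets turned with another pseudocount, filter, scaling or probe set choice, but signs turned when single arrays were left out. Over the 4 fits that each left out 1 array, values ran from -0.19 to 0.84 for Alox12b, -0.12 to 0.66 for Aloxe3, -0.12 to 1.93 for Abca12, -0.34 to 0.15 for Cers3, -0.17 to 0.57 for Elovl4 (1424306_at; 0.32 to 1.07 for 1451308_at), -1.09 to -0.34 for Smpd1 (1448621_a_at), -0.48 to 0.80 for Ugcg by gene, -0.48 to 1.31 for its probe set 1421269_at, -0.73 to 0.47 for 1421268_at, -0.51 to 0.11 for Smpd1 1447874_x_at, -0.23 to 0.48 for Pnpla1 and -0.10 to 0.79 for Cyp4f39. In those fits the lone array was assumed to vary like the other group. The probe set that stood for Ugcg changed when bitransgenic replicate 2 or wild type replicate 2 was left out. It was then 1435133_at, with values of 0.26 and 0.24, so the range by gene mixes probe sets. Calls among related genes were less stable, both in number and in which genes were called. With the mean of a gene's probe sets, Sptssb, Acsl3 and Alox12e all missed the threshold (adjusted p = 0.0589, 0.0638 and 0.055). The 1 call in that fit was therefore another gene, not named here. Calls over all related genes numbered 3 in the main fit. They came to 1 to 9 when an array was left out, of which 1 to 4 were higher and 0 to 6 lower, to 1 with the mean of a gene's probe sets (1 higher, 0 lower), to 1 without an intensity trend (0 higher, 1 lower), to 0 higher with no filter and to 1 lower when probe sets ending in _x_at or _s_at were left out. With replicate number as a block 10 were called, 5 higher and 5 lower, while the barrier lipid genes still gave 0 calls. Over all genes the block called 207 higher and 438 lower, against 98 and 206 without it. The labels do not say what a replicate number marks. Same-numbered arrays deviated from their group means with a correlation of 0.21 and had like spike-in signals, and with 2 pairs this does not settle whether the numbers pair the arrays. The cause of these shifts was not tested.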
